A study of Rattus norvegicus with 12 samples.

Results

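Transcription factor genes of the immediate early response, Fos, Jun, Atf3, Egr1 and Myc, were followed in rat urethral tissue. They were taken by Ensembl ID, and all 5 of them were found among the 32623 gene IDs of the count table: ENSRNOG00000008015 (Fos), ENSRNOG00000026293 (Jun), ENSRNOG00000003745 (Atf3), ENSRNOG00000019422 (Egr1) and ENSRNOG00000004500 (Myc). The symbols are those that came with the rule for choosing the genes. The count table holds no symbols and the rat gene table used for names (GRCr8) carries no Ensembl IDs, so the pairing of ID and symbol was not checked against an annotation. Messenger RNA was sequenced from male rats in 4 groups of 3 libraries each. These were urethral injury followed by tetrahedral DNA nanostructure (TDN), urethral injury followed by rapamycin, urethral injury without either agent, and a sham control without injury. TDN is a cage-like particle folded from synthetic DNA strands, and rapamycin inhibits the kinase mTOR. The injury was mechanical and shared by the first 3 groups. The sources used here give no strain, age, dose, route or time between injury and harvest. Nor do they state vehicle treatment of the injury group, or separate animals for the 3 libraries of each group, so the p-values here reflect library-to-library spread that may be technical.

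The libraries held 44765817 to 55928721 counts. Values are CPM, counts scaled to a common library total and then by TMM, a factor that evens out differences in composition between libraries. This factor was 0.873 to 1.13 in 11 libraries and 0.660 in rapamycin replicate 2, which also had the fewest detected genes (17475), and several rapamycin values are given with and without this library. Where the 3 libraries of a group are listed, they stand in the order of replicates 1 to 3. The smallest of the 60 member counts was 180, for Fos in that library (exact Poisson 95% interval 155 to 208, counting error only). Counting error is therefore small beside the differences between libraries. Since the table has no symbols, markers of urothelium, muscle, stroma and leukocytes were not evaluated, and the labelled tissue was not checked against them. In bulk tissue, fewer cells of a type and less RNA per cell cannot be told apart.

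Immediate early genes are transcribed within a short time of a growth factor, stress or wounding signal by factors already present in the cell, and most of their transcripts decay quickly. Fos and Jun are basic leucine zipper proteins that pair to form AP-1, and Atf3 is a stress-induced member of the ATF/CREB family that can pair with Jun. Egr1 is a zinc finger factor that is switched on by serum response factor and is linked to repair and fibrosis. Myc pairs with Max and drives growth and cell division.

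Egr1 is shown here with its promoter because RefSeq's promoter table (GRCr8) held a window for only this 1 of the 5 genes. The sequence holds elements through which serum response factor acts on immediate early genes. This window lies on the plus strand at chr18:26736828-26737127 and covers 250 bases before the transcription start and 50 after it. Capitals mark the CArG boxes, the binding motif of serum response factor.
Egr1: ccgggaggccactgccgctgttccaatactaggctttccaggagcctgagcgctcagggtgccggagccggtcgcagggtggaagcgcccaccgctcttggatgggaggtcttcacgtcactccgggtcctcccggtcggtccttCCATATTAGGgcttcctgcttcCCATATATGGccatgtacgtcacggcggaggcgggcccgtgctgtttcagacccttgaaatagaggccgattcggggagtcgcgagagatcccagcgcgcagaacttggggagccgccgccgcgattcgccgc

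Both CArG boxes begin upstream of the start site, at -105 and at -83 (the last base before the start counts as -1), and 1.64% of the 33469 promoter windows of the same length held at least 1 such box on either strand. The letters TGACG, the core of the cyclic AMP response element, were found at 2 places on the minus strand, beginning at -135 and -66, and at least once in 21.2% of all windows. This core also lies within the full element TGACGTCA, which was not in the window (1.83% of windows held it). The AP-1 motif TGANTCA (7.33% of windows), the Egr1 motif GCGTGGGCG (0.544%) and the Myc/Max motif CACGTG (6.42%) were not in this window either. All motifs were searched on both strands, and a match describes letters only, not binding.

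None of the 5 genes passed the test in any of the 6 comparisons between groups. Over these 30 tests the edgeR adjusted p ran from 0.149 to 1, and 6 had an unadjusted p under 0.05: 3 in injury against sham, where 21.8% of all genes had one, 2 in rapamycin against injury (4.38% of all genes) and 1 in TDN against rapamycin (24.3%). Among all 17521 genes tested, edgeR called 0.651% between injury and sham and 12.3% between rapamycin and sham, at a Benjamini-Hochberg adjusted p under 0.05. It called 0% in each of the other comparisons. The genes differed in how they were arranged over the groups. Jun and Egr1 lay lower and Myc higher in all 3 injury libraries than in any sham library. Injury and sham libraries also did not overlap for 42.3% of all genes tested. Fos and Atf3 were even in sham and scattered in injury.

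**Figure D1:**
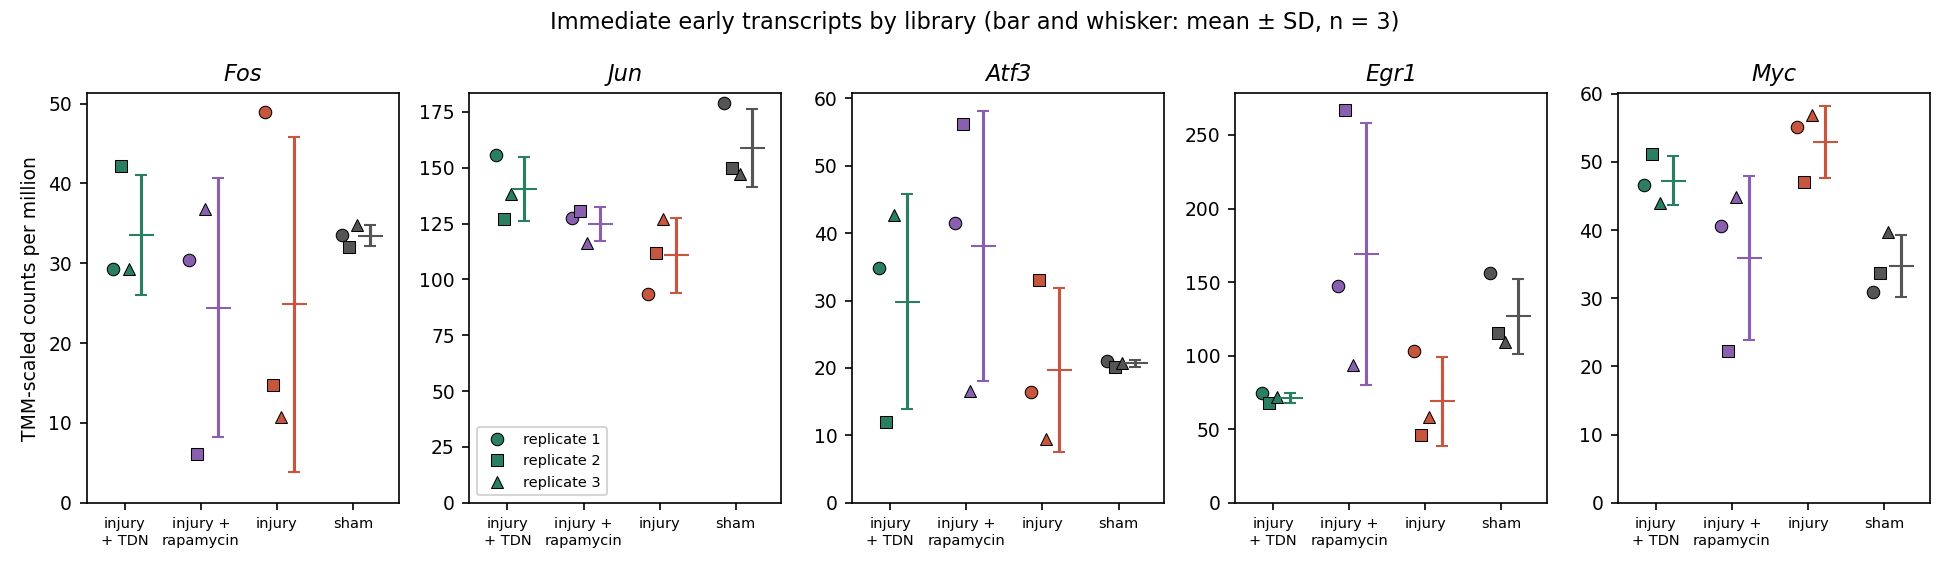
TMM-scaled CPM of 5 genes in every library, by group, with replicate shown by symbol and the mean ± SD beside the points (n = 3). Sham libraries sit close together for Fos (32.1 to 34.7) and Atf3 (20.2 to 21.1), while injury and rapamycin spread widely for Fos and Egr1, and TDN, rapamycin and injury for Atf3.

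In injury against sham, the question was which transcripts differ in the injured urethra. Injury and sham libraries did not overlap for 3 of the 5 genes, where the same held for 42.3% of all genes tested, so this count is near the background. The median log2 fold change was -0.43 over the 5 genes and -0.01 over all genes. The former is the value of Fos alone, which rested on single libraries, so it does not describe the 5 genes as a set.

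Fos reached 49.0 CPM in injury replicate 1 and only 14.7 and 10.8 CPM in injury replicates 2 and 3, against 33.6, 32.1 and 34.7 CPM in sham. One injury library thus lay above all sham libraries and the other two below them. The log2 fold change was -0.43 (SE 0.64, 95% interval -1.84 to 0.98; edgeR adjusted p = 0.674). Leaving out injury replicate 1 gave -1.39, leaving out replicate 2 gave -0.10 and leaving out replicate 3 gave -0.07, so its size rests on single libraries. Within injury, Fos differed 4.55-fold between the highest and the lowest library, and within sham 1.08-fold.

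Jun, the partner of Fos in AP-1, stood at 93.6, 112 and 127 CPM in injury, against 179, 150 and 147 CPM in sham. All injury libraries were below all sham libraries. The log2 fold change was -0.52 (SE 0.18, 95% interval -0.92 to -0.12; edgeR adjusted p = 0.149). The exact two-sided permutation p was 0.1, the smallest that 3 libraries against 3 allow, and 0.375 after Benjamini-Hochberg adjustment over the 30 tests. Both values also hold for Egr1 and Myc here, and for each of the 8 contrasts without overlap. DESeq2 gave an adjusted p of 0.0451 for Jun, in a comparison where it called 10.2% of all genes. Over all alternatives the adjusted p ran from 0.00631, in limma voom with sample quality weights, which called 53.2% of all genes, to 0.465.

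Egr1 was measured at 103, 45.9 and 58.0 CPM in injury, against 156, 115 and 109 CPM in sham. The groups did not overlap, though injury replicate 1 came close to the lowest sham library. The log2 fold change was -0.88 (SE 0.39, 95% interval -1.73 to -0.03; edgeR adjusted p = 0.220), and leaving out 1 injury library moved it to between -1.29 (replicate 1 left out) and -0.60 (replicate 2).

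Myc, unlike Jun and Egr1, lay higher in injury, at 55.1, 47.0 and 56.8 CPM, against 30.9, 33.7 and 39.8 CPM in sham. All injury libraries were above all sham libraries. The log2 fold change was 0.61, a 1.52-fold difference (SE 0.25, 95% interval 0.05 to 1.16; edgeR adjusted p = 0.203). Without rapamycin replicate 2, a library in neither group that adds to the shared estimate of the spread, the log2 fold change was 0.66 and the adjusted p 0.0308. Without the whole rapamycin group these were 0.66 and 0.0323. The numbers of all genes called were 1966 and 2616 in these fits, against 114 with all libraries. Over all alternatives the adjusted p for Myc ran from 0.00829 to 0.512.

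Atf3 had 16.4, 33.1 and 9.49 CPM in injury, against 21.1, 20.2 and 20.8 CPM in sham. The injury libraries lay on both sides of a sham group whose lowest and highest values differed 1.04-fold. The log2 fold change was -0.07 (SE 0.56, 95% interval -1.32 to 1.17; edgeR adjusted p = 0.946), an interval that leaves room for a sizeable difference in either direction. It turned positive, to 0.0439 and 0.26, when injury replicate 1 or 3 was left out.

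**Figure D2:**
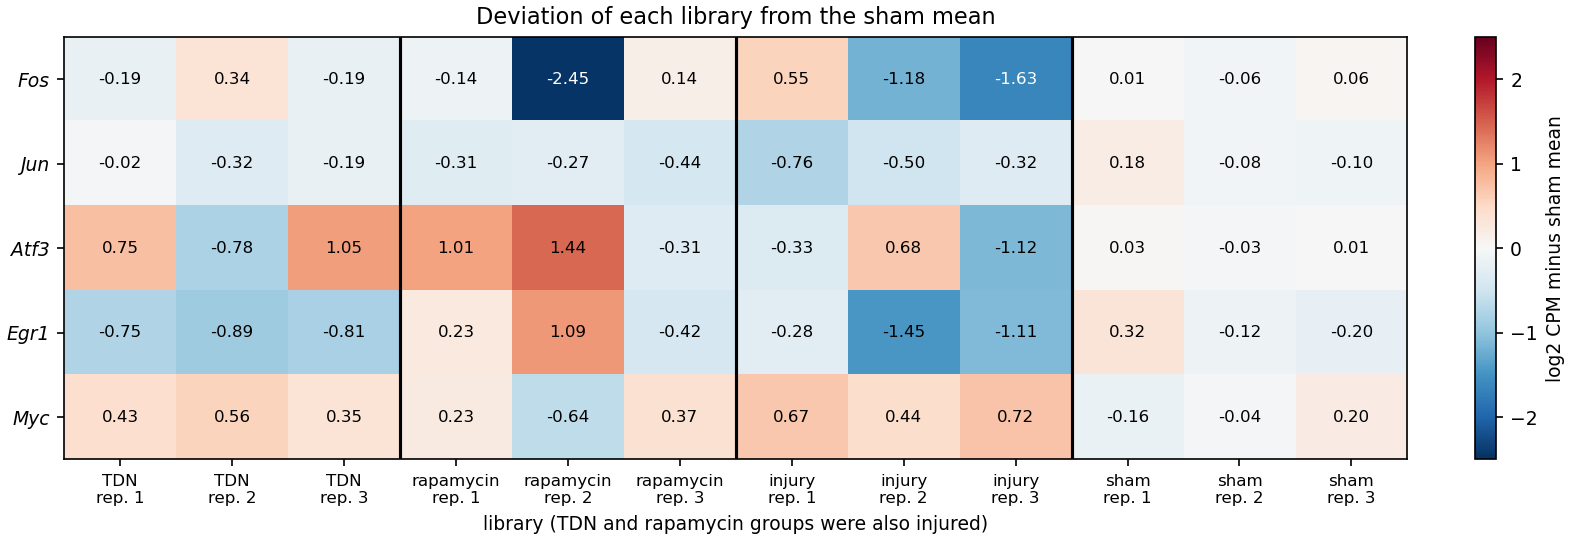
Difference in log2 CPM between each library and the sham mean, for 5 genes (rows) and 12 libraries (columns, grouped). Myc is above 0 in all injury and TDN libraries, and also in rapamycin replicates 1 and 3 and sham replicate 3. Egr1 is below 0 in the same 6 injury and TDN libraries, and also in rapamycin replicate 3 and sham replicates 2 and 3. Rapamycin replicate 2 combines the lowest Fos (-2.45) and Myc (-0.64) with the highest Atf3 (1.44) and Egr1 (1.09).

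Individual injured libraries thus had different combinations of these transcripts. Injury replicate 1 held the highest Fos and the lowest Jun of all 12 libraries, and injury replicate 2 the lowest Egr1. By library totals alone, Fos was higher in TDN replicate 2 (46.4) than in injury replicate 1 (44.7). Injury replicate 3 held the highest Myc with the lowest Atf3. Fos and Atf3, both stress-responsive leucine zipper genes, differed most among the pairs. Their log2 CPM, each centred on its own mean, differed by 1.02 on average over the 12 libraries. Jun and Myc differed least, at 0.42. This measure is also small where both genes vary little. In all injury libraries Jun lay below and Myc above every sham library, so the value does not mean that they moved together. Groups accounted for 68.9% of the squared deviation of Jun, 62.2% of that of Egr1 and 54.8% of that of Myc. They accounted for only 20.9% of that of Fos and 23.3% of that of Atf3, beside a median of 45.3% over all genes tested. The SD of log2 CPM in sham was 0.06 for Fos and 0.03 for Atf3 (median over all genes 0.17), and in injury 1.15 for Fos and 0.90 for Atf3 (median 0.51).

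TDN against injury asked whether these transcripts differ when the injured urethra is treated with the DNA particle. The libraries of the groups overlapped for all 5 genes, beside 19.5% of all genes tested that did not overlap. For edgeR none of the 5 was called and none had an unadjusted p under 0.05. DESeq2 and limma voom called none, and limma voom with sample quality weights called 1, Fos, beside 37.6% of all genes.

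Fos stood at 29.2, 42.2 and 29.3 CPM in TDN, against 49.0, 14.7 and 10.8 CPM in injury. The TDN libraries lay between the extremes of the injury group. Fitted over all libraries, the log2 fold change was 0.43 (SE 0.64, 95% interval -0.97 to 1.84; edgeR adjusted p = 0.774), and it ran from 0.08 to 1.40 when injury replicate 3 or injury replicate 1 was left out. With sample quality weights it was 0.99 (limma voom adjusted p = 0.0309). The weights of injury replicates 1 to 3 were 0.433, 2.10 and 0.204.

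Jun had 156, 127 and 138 CPM in TDN, against 93.6, 112 and 127 CPM in injury. The groups met at a single point, where TDN replicate 2 and injury replicate 3 were both at 127 CPM. When scaled by library totals alone, all TDN libraries were above all injury libraries, and 18.0% of genes did not overlap in either direction. For Jun this was a near tie of the same libraries, at 139.5 in TDN replicate 2 and 139.0 in injury replicate 3. The fitted log2 fold change was 0.34 (SE 0.18, 95% interval -0.05 to 0.74; edgeR adjusted p = 0.650).

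Egr1 was at 74.4, 67.6 and 71.6 CPM in TDN, against 103, 45.9 and 58.0 CPM in injury. Group means were close, at 71.2 ± 3.4 CPM in TDN and 68.9 ± 30.0 CPM in injury (SD, n = 3 each). Fitted over all libraries, the log2 fold change was 0.05, with a 95% interval of -0.80 to 0.89 (edgeR adjusted p = 0.962), and it was -0.20 without injury replicate 2.

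Myc had 46.6, 51.1 and 44.0 CPM in TDN, against 55.1, 47.0 and 56.8 CPM in injury. One TDN library reached into the injury range. The fitted log2 fold change was -0.17 (95% interval -0.72 to 0.39; edgeR adjusted p = 0.782). Atf3 had 34.8, 11.98 and 42.7 CPM in TDN, against 16.4, 33.1 and 9.49 CPM in injury, and its log2 fold change was 0.60 (95% interval -0.65 to 1.85; edgeR adjusted p = 0.674). It was 1.18 without injury replicate 2, 0.27 without injury replicate 3 and -0.23 with sample quality weights.

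TDN was set against sham to see how far treated injured tissue stood from uninjured tissue, with the same sham libraries as in the injury comparison. TDN and sham did not overlap for 2 of the 5 genes, Egr1 and Myc, where the same held for 32.6% of all genes. Egr1 in TDN (67.6 to 74.4 CPM) lay below every sham library (109 to 156 CPM), with a log2 fold change of -0.83 (SE 0.39, 95% interval -1.69 to 0.02; edgeR adjusted p = 0.963). When edgeR was fitted to these 6 libraries alone, which leaves out the more variable groups, the log2 fold change was -0.81 and the adjusted p 0.0324, and 5.88% of all genes were called. Myc in TDN (44.0 to 51.1 CPM) lay above every sham library (30.9 to 39.8 CPM), with a log2 fold change of 0.44 (SE 0.25, 95% interval -0.11 to 0.996; edgeR adjusted p = 1). With sample quality weights limma voom gave adjusted p = 0.00942 for Egr1 and 0.0122 for Myc, and called 11.2% of all genes.

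The other 3 genes overlapped between TDN and sham. Fos averaged 33.6 ± 7.5 CPM in TDN and 33.5 ± 1.4 CPM in sham (SD, n = 3 each), with a 95% interval of -1.40 to 1.41 for the log2 fold change. Jun averaged 140 ± 14 CPM in TDN and 159 ± 18 CPM in sham (SD, n = 3 each), and its log2 fold change was -0.18 (95% interval -0.57 to 0.22). Atf3 spread from 11.98 to 42.7 CPM in TDN, on both sides of 20.2 to 21.1 CPM in sham. The SD of its log2 CPM was 0.98 in TDN, although the median over all genes in that group was 0.19.

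**Figure D3:**
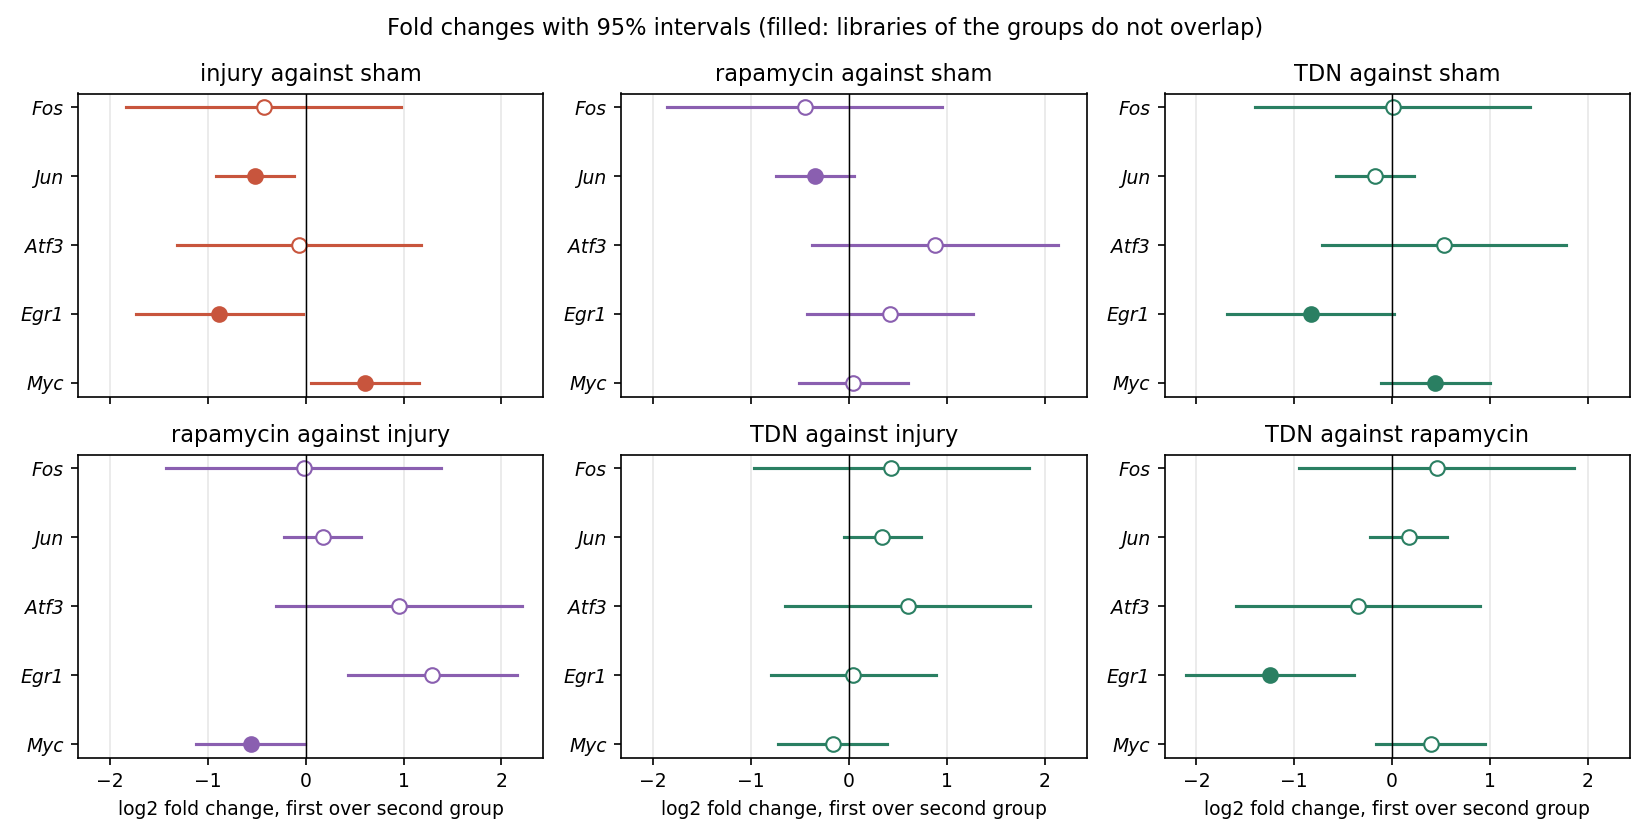
Fitted log2 fold changes (circles) and their 95% intervals (lines) for 5 genes in 6 comparisons, with filled circles where the libraries of the groups do not overlap. Intervals of Fos and Atf3 cover 0 in every panel, and 6 of the 30 intervals exclude 0 before adjustment, for Jun, Egr1 and Myc only.

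Rapamycin against injury asked the same of mTOR inhibition. The libraries did not overlap for 1 of the 5 genes, Myc, beside 3.94% of all genes tested. For edgeR 2 of the 5, Egr1 and Myc, had an unadjusted p under 0.05 and none was called; DESeq2, limma voom and limma voom with sample quality weights called none either.

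Egr1 had 147, 267 and 93.3 CPM in rapamycin, against 103, 45.9 and 58.0 CPM in injury. With TMM scaling only the third rapamycin library reached into the injury range, whereas by library totals alone every rapamycin library was above every injury library (4.33% of all genes did not overlap on that scale). Fitted over all libraries, the log2 fold change was 1.30, a 2.45-fold difference (SE 0.39, 95% interval 0.43 to 2.16; edgeR adjusted p = 0.902), and without rapamycin replicate 2 it was 0.80 (adjusted p = 0.854).

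Myc had 40.6, 22.2 and 44.8 CPM in rapamycin, against 55.1, 47.0 and 56.8 CPM in injury. All rapamycin libraries were below all injury libraries when scaled by TMM, but the groups overlapped when scaled by library totals alone. The fitted log2 fold change was -0.56 (SE 0.25, 95% interval -1.12 to -0.00474; edgeR adjusted p = 0.902) and -0.31 without rapamycin replicate 2.

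Fos stood at 30.4, 6.09 and 36.8 CPM in rapamycin, against 49.0, 14.7 and 10.8 CPM in injury. Both groups were scattered, and the log2 fold change of -0.02 (95% interval -1.43 to 1.38; edgeR adjusted p = 0.995) became 0.42 without rapamycin replicate 2 and 0.94 without injury replicate 1. Jun had 128, 131 and 116 CPM in rapamycin, against 93.6, 112 and 127 CPM in injury (log2 fold change 0.17, 95% interval -0.22 to 0.57). Atf3 reached 41.6, 56.3 and 16.6 CPM in rapamycin, against 16.4, 33.1 and 9.49 CPM in injury. Its log2 fold change was 0.95 (SE 0.57, 95% interval -0.30 to 2.21; edgeR adjusted p = 0.902) and 0.57 without rapamycin replicate 2.

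Rapamycin against sham separated the libraries of 1 of the 5 genes, Jun, beside 52.3% of all genes tested, and none of the 5 was called in edgeR, where 12.3% of all genes were. Jun lay at 116 to 131 CPM in rapamycin, against 147 to 179 CPM in sham, with a log2 fold change of -0.35 (SE 0.18, 95% interval -0.74 to 0.05; edgeR adjusted p = 0.168). Rapamycin libraries were on both sides of sham for the other 4 genes. Egr1 averaged 169 ± 89 CPM in rapamycin and 127 ± 26 CPM in sham (SD, n = 3 each), a log2 fold change of 0.42 that was -0.03 without rapamycin replicate 2 and -0.04 when libraries were scaled by their totals. Atf3 averaged 38.1 ± 20.04 CPM in rapamycin and 20.7 ± 0.5 CPM in sham (SD, n = 3 each), a log2 fold change of 0.88. Without rapamycin replicate 2 the rapamycin mean was 29.1 CPM and the log2 fold change 0.55. Fos had a log2 fold change of -0.45 with all libraries and 0.06 without rapamycin replicate 2, whose exclusion left 30.4 and 36.8 CPM. Myc had 0.05 with all libraries and 0.35 without it, which left 40.6 and 44.8 CPM.

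TDN against rapamycin set the treatments side by side. Treated libraries did not overlap for 1 of the 5 genes, Egr1, beside 38.5% of all genes tested. By library totals alone Jun did not overlap either, with all TDN libraries higher, beside 36.2% of all genes. Egr1 was at 74.4, 67.6 and 71.6 CPM in TDN, against 147, 267 and 93.3 CPM in rapamycin. Every TDN library was below every rapamycin library, with a log2 fold change of -1.25 (SE 0.39, 95% interval -2.11 to -0.39; edgeR adjusted p = 0.161). The value was -0.78 without rapamycin replicate 2 (adjusted p = 0.433) and -1.54 without rapamycin replicate 3 (adjusted p = 0.0247, with 26.8% of all genes called). DESeq2 gave -1.30 with an adjusted p of 0.0416 and called 9.33% of all genes. The edgeR adjusted p of the other 4 genes was 0.304 to 0.671.

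Levels of Egr1 were ordered by group mean as rapamycin (169 CPM), sham (127 CPM), TDN (71.2 CPM) and injury (68.9 CPM), of which only sham and TDN among the neighbours did not overlap. For Jun the order was sham (159 CPM), TDN (140 CPM), rapamycin (125 CPM) and injury (111 CPM), and each group overlapped its neighbour. For Myc it was injury (53.0 CPM), TDN (47.2 CPM), rapamycin (35.9 CPM) and sham (34.8 CPM), again with overlap between neighbours. Atf3 ran from rapamycin (38.1 CPM) through TDN (29.8 CPM) and sham (20.7 CPM) to injury (19.7 CPM). Fos ran from TDN (33.6 CPM) and sham (33.5 CPM) to injury (24.8 CPM) and rapamycin (24.4 CPM), and for both of these genes all neighbours overlapped. The orders of 3 genes changed without rapamycin replicate 2. The rapamycin mean was then 120.3 CPM for Egr1, below sham, 29.1 CPM for Atf3, below TDN, and 33.6 CPM for Fos, level with TDN and sham. It was 122 CPM for Jun and 42.7 CPM for Myc, whose orders stayed as above.

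Ratios of counts within a library do not depend on how libraries are scaled. They were computed for all 10 pairs of the 5 genes, and the 2 described here were chosen after their values were seen. In injury against sham, these 2 were the only ratios of the 10 without overlap. That follows from Jun and Egr1 being lower, and Myc higher, in every injury library than in any sham library. It is therefore not a separate result. There were 1.70, 2.38 and 2.24 Jun counts per Myc count in injury, against 5.80, 4.44 and 3.71 in sham. The injury libraries were all below the sham libraries, a mean difference of -1.13 on the log2 scale (SD 0.26 in injury and 0.32 in sham, n = 3 each). TDN libraries lay between, at 3.34, 2.49 and 3.15 Jun counts per Myc count, overlapping neither group. Of the 10 ratios, 5 did not overlap between TDN and sham, 1 between TDN and injury and 2 between rapamycin and injury. Rapamycin libraries, at 3.14, 5.88 and 2.60, were also all above injury. Replicates 1 and 3 of rapamycin lay between injury and sham, and replicate 2 lay above sham. There were 1.87, 0.977 and 1.02 Egr1 counts per Myc count in injury, against 5.06, 3.42 and 2.74 in sham. TDN libraries had 1.598, 1.32 and 1.63, within the injury range. In rapamycin the Egr1 counts per Myc count spread upward from 2.08 in replicate 3, and replicate 2 was the highest of all 12 libraries. Each non-overlapping contrast had an exact permutation p of 0.1, the smallest possible, and 0.429 after Benjamini-Hochberg adjustment over 60 tests.

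**Figure D4:**
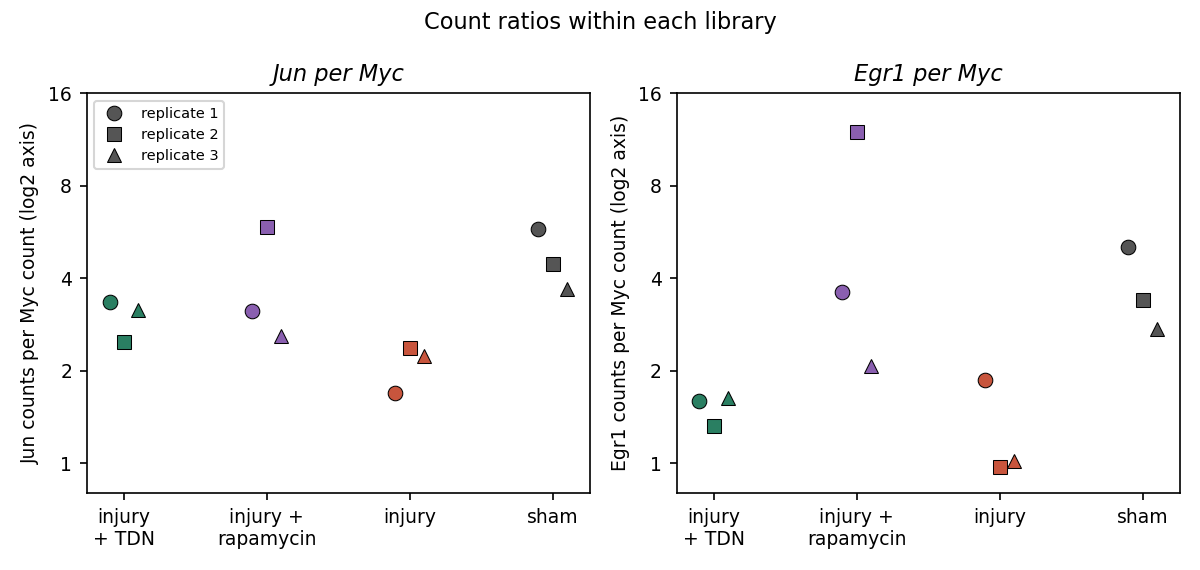
Counts of Jun (left) and Egr1 (right) per count of Myc in the same library, on log2 axes, by group, with replicate shown by symbol. Injury libraries lie below sham libraries in both panels, and TDN libraries lie between injury and sham for Jun per Myc and beside injury for Egr1 per Myc. Rapamycin libraries lie above injury libraries in both panels.

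The gene most like Myc over the 12 libraries, among 11867 other genes with a mean of at least 5 CPM, was ENSRNOG00000023403. Its centred log2 CPM differed from that of Myc by 0.11 on average, where the median over these genes was 0.47. It stood at 12.3, 11.5 and 12.2 CPM in TDN, 9.89, 6.02 and 11.5 CPM in rapamycin, 11.2, 10.8 and 14.6 CPM in injury and 8.11, 10.1 and 10.6 CPM in sham. For Fos the nearest gene was ENSRNOG00000055096, at an average difference of 0.32 (median 0.77). Its injury values of 4.96, 3.45 and 7.51 CPM did not have the order of Fos (49.0, 14.7 and 10.8 CPM). These IDs have no name in the sources used here.

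**Figure D5:**
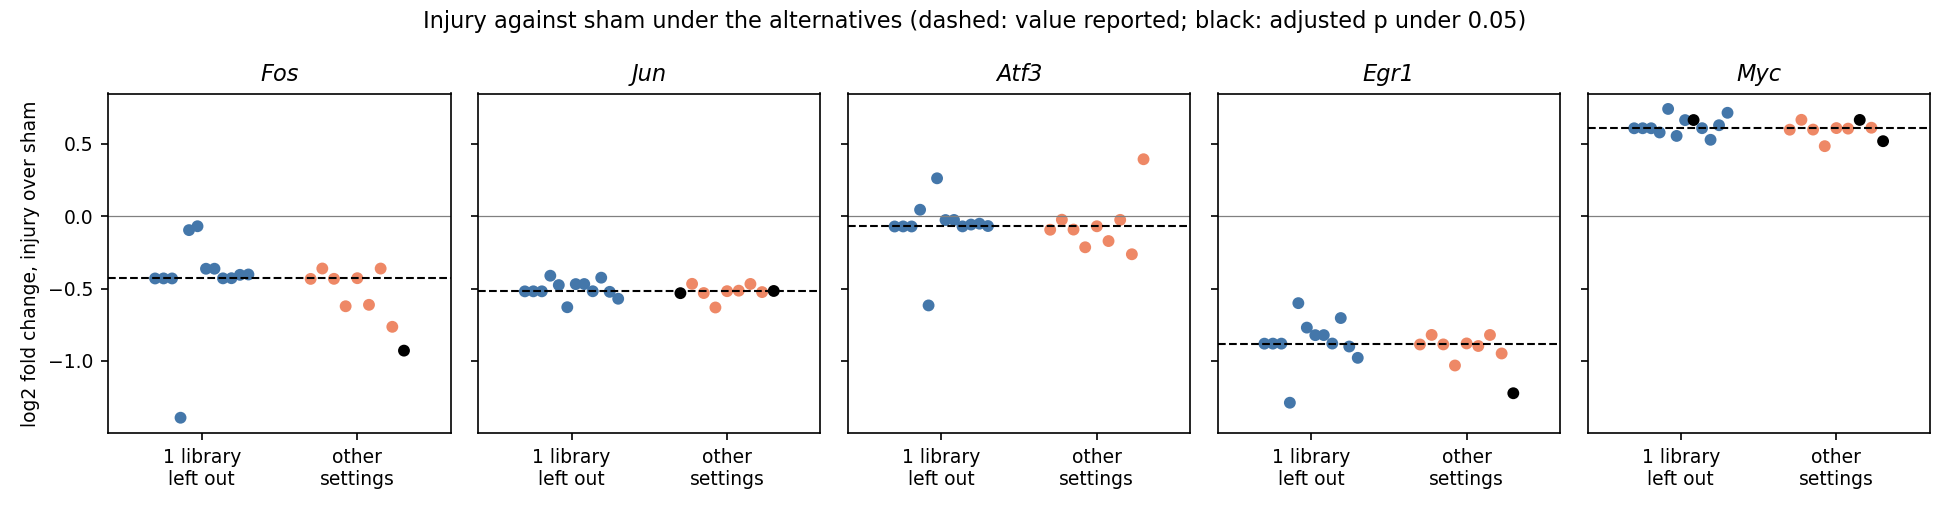
Log2 fold change of injury over sham for 5 genes, with each of the 12 libraries left out in turn (left of each panel) and under the other settings (right), where black points have an adjusted p under 0.05 and the dashed line is the value in the text. Jun and Egr1 stay below 0 and Myc above 0 at every point, Fos moves between -1.39 and -0.07, and Atf3 crosses 0.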

How the data were processed

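Libraries were made from poly(A)-enriched RNA, per the labels' protocols. The authors deposited whole-number counts per Ensembl gene ID without normalization, mapped to rat build Rnor 6.0 according to the submitters' processing notes. No aligner, counter, annotation or strand setting is given in the sources used here. Overlapping and antisense genes therefore cannot be separated. Of the 15 columns, 12 matched labelled samples and 3 were not used. Replicates differed by more than sampling noise (chi-square per degree of freedom of at least 53.7 in every pair).

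The main test was edgeR 4.0.16 (R 4.3.3), quasi-likelihood, with TMM, its default expression filter (17521 genes kept, all 5 members among them), 1 coefficient per group over 12 libraries and Benjamini-Hochberg adjustment over all tested genes. Standard errors are the log2 fold change over the root of F, and intervals are unadjusted. Log2 CPM used a prior count of 2. DESeq2 1.42.0, voom from limma 3.58.1 (plain or with sample quality weights), other scalings, filters and sample sets, a replicate block and each library left out were alternatives; scaling by library totals was added after the data were seen. Deviations of sham and injury libraries with equal replicate numbers had correlations of 0.107, 0.138 and 0.261, each over 0.1. In no other comparison were all correlations over 0.1. Those of rapamycin against injury were 0.0921, 0.156 and 0.55, the last being the largest of all, and TDN against sham reached -0.243. Libraries with unequal numbers were not compared and no label pairs the libraries, so pairing was not shown. The replicate block changed no member's call. Scripts were tested on simulated data with planted changes and the same spread in every group. The spread of the real groups was unequal, so this checked the code only.

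Members, lists and tests were chosen with earlier results of these data known. The named genes are the 5 members and, lacking symbols, the single most similar ID to Fos and to Myc. The wider lists of immediate early genes, upstream kinases and cell type markers are by symbol and were not evaluated. The TGACG motif was added after the promoter was read.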

Additional observations from a re-analysis of the deposited data

How the results depend on the processing

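Of the 615 fold changes of the 5 genes recomputed under alternatives, 574 kept their direction and stayed above an adjusted p of 0.05, 14 kept it and passed, and 27 turned sign. The number of the 5 genes called was 0 in every comparison for edgeR with RLE size factors, with no expression filter, with library totals or with a replicate block, and for limma voom. With the block the log2 fold change of Fos in rapamycin against injury was 0.0275, the only sign it turned. DESeq2 called 1 in injury against sham (Jun) and 1 in TDN against rapamycin (Egr1). Voom with sample quality weights called 4 in injury against sham (all but Atf3), 2 in TDN against sham, and 1 each in TDN against injury and TDN against rapamycin. Without the rapamycin group edgeR called 1 in injury against sham (Myc), and on the 6 libraries compared 1 in TDN against sham (Egr1). With 1 library left out it called 0 to 1 in injury against sham and in TDN against rapamycin.

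Over all genes, the number called was 114 in injury against sham and 2162 in rapamycin against sham, and 0 in the other comparisons. With 1 library left out these ranged from 0 to 2117 and from 1 to 7249. TDN against sham gave 0 to 16, rapamycin against injury 0 to 3, TDN against rapamycin 0 to 4788, and TDN against injury 0. Fits of the 6 libraries compared called 0 in injury against sham, 34 in rapamycin against sham and 993 in TDN against sham. Without the rapamycin group 2616 were called in injury against sham and 10 in TDN against sham. Without a filter 1157 were called in rapamycin against sham. With library totals, 731 were called in rapamycin against sham and 6 in TDN against sham. DESeq2 called 1846 in injury against sham, 5676 in rapamycin against sham, 311 in TDN against sham, 29 in rapamycin against injury, 42 in TDN against injury and 1577 in TDN against rapamycin. Voom with sample quality weights called 9322 in injury against sham, 8440 in rapamycin against sham, 1959 in TDN against sham, 6581 in TDN against injury and 5993 in TDN against rapamycin. The cause of these differences was not tested.

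The other turned signs belong to log2 fold changes whose 95% intervals cover 0. Fos in TDN against sham was 0.00492 in the report, -0.000896 in DESeq2, -0.0153 in voom, -0.00802 with library totals and -0.19 to 0.10 with 1 library left out. Fos in rapamycin against injury was 0.0929 in voom, 0.79 with quality weights and -0.44 to 0.94 with 1 library left out. With quality weights Atf3 was 0.39 in injury against sham and -0.23 in TDN against injury. With library totals the values were -0.0356 for Egr1 and -0.21 for Myc in rapamycin against sham, -0.0582 for Jun in rapamycin against injury and 0.0821 for Atf3 in TDN against rapamycin. With 1 library left out, Atf3 ranged from -0.62 to 0.26 in injury against sham and from -0.71 to 0.0278 in TDN against rapamycin. In rapamycin against sham, Fos ranged from -0.87 to 0.0572, Egr1 from -0.0256 to 0.70 and Myc from -0.15 to 0.35. Egr1 in TDN against injury ranged from -0.20 to 0.46, and Fos in TDN against rapamycin from -0.0236 to 0.88.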
